A study of Mus musculus with 11 samples.

Results

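Transcript levels of 9 cathepsin genes and of the gene for cystatin C, a secreted inhibitor of cysteine cathepsins, were examined in the hippocampus of ageing mice. The 10 genes were taken by name from the 36826 genes of the deposited table, as Ctsa, Ctsb, Ctsc, Ctsd, Ctsf, Ctsh, Ctsl, Ctss, Ctsz and Cst3. All 10 were among the 14428 genes tested, and each stood above an FPKM of 1 (FPKM is a level scaled by transcript length and library size) in all 11 libraries, so that none entered the test through 1 group alone. The libraries fell into 3 groups, all at 14 months of age. Wild-type C57BL/6J mice gave 4 libraries (WT). APP/PS1 mice gave 3 after sham exposure (sham 1, 3 and 4) and 4 after exposure to a rotating field of 0.4 T (RMF). Field or sham exposure was given on 5 days of the week for 12 months, at 3 h a day between 2 and 11 months of age and at 6 h a day thereafter. Both exposed groups carry the APP/PS1 transgenes, so the field was compared with sham only on that background, and no wild-type group was exposed.

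Cathepsins are proteases of the endosome and lysosome that are made as inactive proenzymes and mature at acid pH. Most are cysteine proteases, whereas cathepsin D is an aspartic protease and cathepsin A a serine carboxypeptidase. In brain, microglia express several of them strongly, and neurons and astrocytes also depend on them to degrade proteins delivered by endocytosis and autophagy. Cystatin C is abundant in cerebrospinal fluid, and it does not inhibit cathepsin D or cathepsin A. APP/PS1 mice express mutant forms of the amyloid precursor protein and presenilin 1 and deposit amyloid plaques with age. The labels name neither the line nor the promoter that drives its transgenes.

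Library totals lay between 68124548 and 70786786 counts. App, the gene of the amyloid precursor protein, stood at 1558 to 1633 CPM (counts scaled to library size) in WT libraries and, among transgenic libraries, at 2960 to 3669 in sham and 3199 to 3588 in RMF. The labels call the cells neurons, but no isolation step is recorded, and all 20 microglia, 12 astrocyte and 10 oligodendrocyte markers examined passed the filter on low values, so the libraries were read as whole tissue. Whether a library stands for 1 animal is not stated, and the protocol speaks of pooled RNA. The p-values therefore measure the spread between libraries, which may be partly technical. Pairs that included WT 3 differed from other WT libraries more than those differed among themselves (chi-square per degree of freedom of 247 to 302 against 38.9 to 51.2), and sham 4 stood apart likewise (140 to 184 against 42.2), with 9.53% of its counts from mitochondrial genes against 5.76% to 7.39% in the other libraries. Genes typical of other organs also differed between the genotypes. Summed CPM of 13 intestine and kidney markers was 3.86 to 6.96 in WT, 62.5 to 66.3 in sham and 35.8 to 73.7 in RMF. That of 12 skeletal muscle markers was 65.5 to 115, 17.7 to 27.9 and 24.8 to 29.8. Of 19 tested liver markers, 17 were called higher in sham and 13 in RMF than in WT. Some, such as Tat and Ambp (means of 0.0535 and 0.0751 CPM in WT), passed the filter on low values only through transgenic libraries. Summed CPM of all 20 liver markers was 148 to 545 in WT, 607 to 649 in sham and 382 to 823 in RMF. WT and RMF thus overlapped in this sum. The part of these differences in the results on cathepsins was not tested.

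Ctsd was the member with the largest called difference in every comparison with WT. Its level was 1.77-fold that of WT in sham and 2.04-fold in RMF. Ctss and Ctsz also passed the test, as higher, in both transgenic groups, although both sham calls were lost in some alternative fits. Ctsl and Ctsh passed it in RMF, and Ctsb, Ctsc, Ctsa, Ctsf and Cst3 passed it in neither. None of the 10 genes passed the test between RMF and sham. Calls were made with edgeR's quasi-likelihood test, adjusted over all 14428 genes by the Benjamini-Hochberg method, at a threshold of 0.05. Levels are CPM on tested genes, scaled by TMM, unless FPKM is named, and errors are SDs over libraries.

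**Figure D1:**
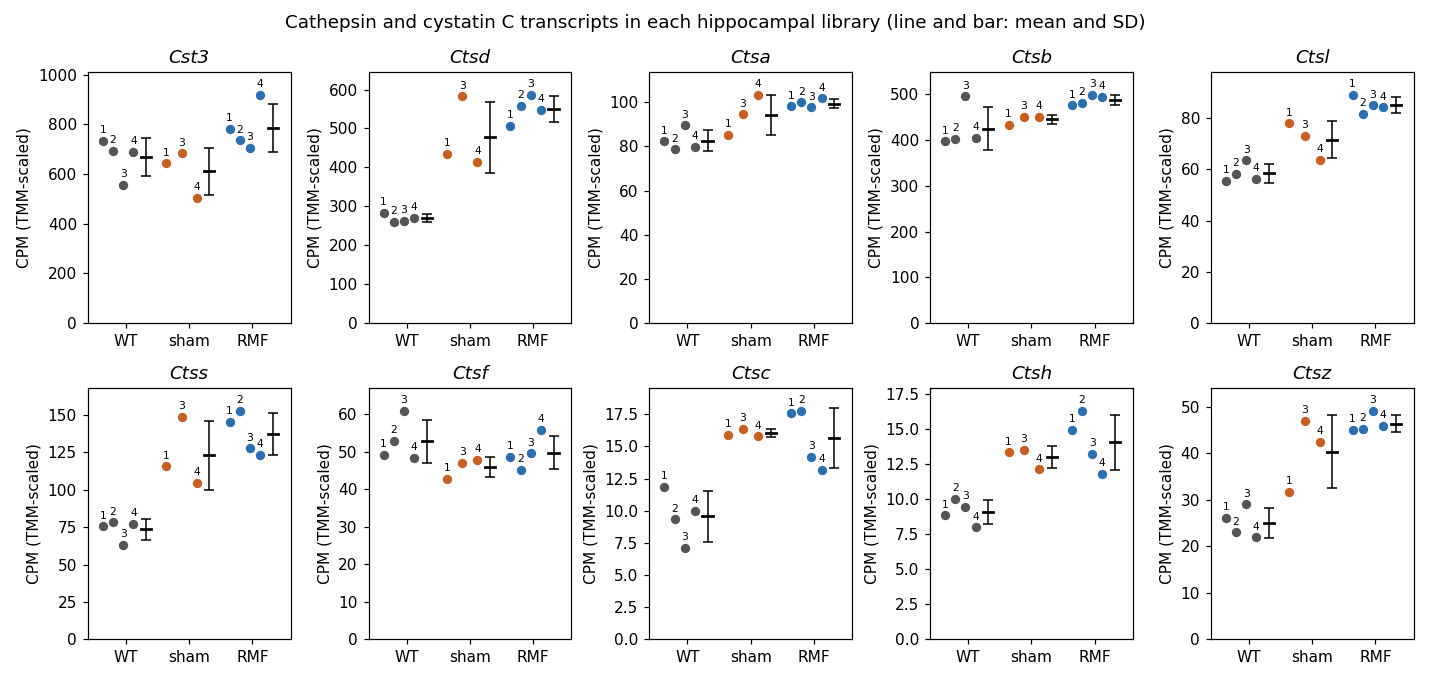
Level of each gene in every library in CPM scaled by TMM (vertical axes, linear and from 0), by group, with library numbers beside the points and the group mean and SD as line and bar at the right of each group. For Ctsd the WT points lie between 261 and 283 CPM and the 7 transgenic points between 414 and 587. For Cst3 the groups lie between 505 and 919.6 CPM, with WT overlapping both sham and RMF.

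The sequences around the transcription start are given for the 3 genes that were called in both sham and RMF and for Cst3, which was called in neither. They come from RefSeq on GRCm38.p6, which held promoters of 8 of the 10 genes, and each runs from 250 bases before the start to 20 bases after it. Capitals mark the letters of the motifs searched on both strands, which were TCACGTGAC, its core CACGTG, GAGGAAGT and GGGCGG. The first is part of the element bound by TFEB, a regulator of lysosomal genes, the third is typical of PU.1, a factor of myeloid cells, and the last is the GC box bound by Sp1.
Ctsd, chr7:142387808-142388077, minus strand: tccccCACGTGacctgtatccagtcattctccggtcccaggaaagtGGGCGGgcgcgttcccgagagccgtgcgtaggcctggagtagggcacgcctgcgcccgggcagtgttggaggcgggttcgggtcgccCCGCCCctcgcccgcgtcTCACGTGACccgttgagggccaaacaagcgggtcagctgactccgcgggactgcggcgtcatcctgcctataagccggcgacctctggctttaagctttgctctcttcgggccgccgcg
Ctss, chr3:95526536-95526805, plus strand: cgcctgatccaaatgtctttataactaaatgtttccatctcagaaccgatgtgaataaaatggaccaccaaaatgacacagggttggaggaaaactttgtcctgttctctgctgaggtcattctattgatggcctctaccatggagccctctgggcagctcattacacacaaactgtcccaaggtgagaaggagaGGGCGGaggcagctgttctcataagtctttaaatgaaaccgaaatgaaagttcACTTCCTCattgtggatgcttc
Ctsz, chr2:174439020-174439289, minus strand: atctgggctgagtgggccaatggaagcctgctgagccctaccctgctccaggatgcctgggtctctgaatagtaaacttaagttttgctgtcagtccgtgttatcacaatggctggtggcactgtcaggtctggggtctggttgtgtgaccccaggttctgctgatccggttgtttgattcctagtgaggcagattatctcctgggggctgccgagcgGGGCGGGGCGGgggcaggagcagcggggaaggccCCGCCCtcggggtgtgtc
Cst3, chr2:148875493-148875762, minus strand: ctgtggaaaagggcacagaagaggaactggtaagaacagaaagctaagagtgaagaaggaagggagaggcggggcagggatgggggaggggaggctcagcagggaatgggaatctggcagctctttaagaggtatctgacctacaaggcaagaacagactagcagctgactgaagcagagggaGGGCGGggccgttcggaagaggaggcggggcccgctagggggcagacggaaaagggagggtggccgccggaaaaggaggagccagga
TCACGTGAC stood 99 bases before the start of Ctsd, and 0.782% of 32851 promoters of 300 bases held it. The upstream of the 2 promoters that RefSeq gives for Ctsa held none of the 4 motifs, and the other held TCACGTGAC 2 times. CACGTG, which lies inside TCACGTGAC, was found in 7.15% of promoters. Among them were those of Ctsd (2 matches), Ctsl and Ctsf and the downstream promoter of Ctsa (2 matches, both inside TCACGTGAC). GAGGAAGT, found in 3.2% of promoters, lay on the opposite strand across the start of Ctss and 151 bases before that of Ctsc. GGGCGG was found in 35.7% of promoters, including those of all 4 genes shown. These matches describe letters in a window and do not show binding.

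Cathepsin D is the main aspartic protease of the lysosome. Ctsd (ENSMUSG00000007891, minus strand of chromosome 7, 141929648 to 141941775 as the table gives it) stood at 283, 261, 262 and 270.1 CPM in WT 1 to 4. It stood at 435, 583 and 414 CPM in sham 1, 3 and 4, and at 507, 558, 587 and 547 CPM in RMF 1 to 4. All 7 transgenic libraries were above the highest WT library, and sham 3 lay within the range of RMF. Sham was 1.77-fold higher than WT (log2 difference 0.83, SE 0.109, adjusted p = 0.00256) and RMF 2.04-fold higher (log2 difference 1.03, SE 0.102, adjusted p = 0.000392). The spread in sham was wider than in the other groups, at 477 ± 92.0 CPM (n = 3) against 269 ± 10.1 in WT (n = 4) and 549.7 ± 32.8 in RMF (n = 4). Without sham 3 the fold of sham over WT was 1.58, and the call held in each of the 11 fits that left out 1 library.

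Cathepsin S is a cysteine protease of antigen-presenting cells that stays active at neutral pH and trims the invariant chain of MHC class II. Ctss (ENSMUSG00000038642, plus strand of chromosome 3, 95434097 to 95463714) stood at 75.5, 78.1, 63.3 and 77.2 CPM in WT 1 to 4. In sham 1, 3 and 4 it stood at 116, 149 and 105 CPM, and in RMF 1 to 4 at 145, 153, 128 and 123 CPM. Every transgenic library was above every WT library, and sham and RMF overlapped. The rise was 1.67-fold in sham (adjusted p = 0.0148) and 1.87-fold in RMF (adjusted p = 0.00221). In sham it rested in part on sham 3, without which the fold was 1.5 with an adjusted p of 0.0638. The call in sham was also lost when WT and sham were fitted alone (adjusted p = 0.0835).

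Cathepsin L is a cysteine endopeptidase found in most cell types. Ctsl (ENSMUSG00000021477, minus strand of chromosome 13, 64507151 to 64518704) stood at 55.4, 58.3, 63.4 and 56.4 CPM in WT 1 to 4 and at 77.9, 73.0 and 63.6 CPM in sham 1, 3 and 4. In RMF 1 to 4 it stood at 89.0, 81.5, 85.0 and 84.2 CPM. The 3 groups did not overlap, although sham 4 stood only just above WT 3. In deposited FPKM sham 4 (8.82) lay below WT 3 (9.60), so the order of these libraries depends on the scaling. RMF was 1.45-fold above WT (log2 difference 0.54, SE 0.0744, adjusted p = 0.00307), and this call held in each fit that left out 1 library. Sham stood at 1.22-fold of WT with an adjusted p of 0.168. That adjusted p was 0.00891 without WT 3 and sham 4 together and 0.00717 by voom with library weights, whereas it missed the threshold under the other 21 of 23 alternatives, at up to 0.338 with 1 library left out and 0.463 with WT and sham fitted alone.

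Cathepsin B, an abundant cysteine protease that also acts as a carboxydipeptidase, and cathepsin F, a less studied cysteine endopeptidase, passed the test in none of the comparisons with WT. Ctsb (ENSMUSG00000021939, chromosome 14, 63359911 to 63383372) stood at 397, 402, 495 and 405 CPM in WT 1 to 4, at 434, 450.8 and 450.7 CPM in sham 1, 3 and 4, and at 475, 481, 499 and 495 CPM in RMF 1 to 4. WT 3 lay within the range of RMF, whereas the other 3 WT libraries lay below all transgenic libraries. RMF stood at 1.15-fold of WT with an adjusted p of 0.479, and without WT 3 at 1.21-fold with an adjusted p of 0.0133, so that 1 library decided this call. Ctsf (ENSMUSG00000083282, chromosome 19, 4905158 to 4910946) was the single cathepsin whose sham libraries, at 42.8, 47.1 and 47.9 CPM, all lay below WT, at 49.2, 52.8, 60.8 and 48.3 CPM. The difference of 0.87-fold did not pass the test (adjusted p = 0.408), and RMF, at 48.6, 45.1, 49.5 and 55.8 CPM, overlapped both. Ctsb shares an end with the gene Fdft1 on the opposite strand (4318 to 6997 counts per library), and whether counting used strand was not given in the sources used here, so its level is uncertain to that extent.

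The exopeptidases cathepsin Z, H and C are cysteine proteases that trim 1 end of a peptide chain. Cathepsin Z, also called cathepsin X, is a carboxypeptidase that is strongly expressed in myeloid cells. Ctsz (ENSMUSG00000016256, minus strand of chromosome 2, 174269286 to 174280832) stood at 26.1, 23.0, 29.0 and 21.9 CPM in WT 1 to 4, at 31.7, 46.9 and 42.5 CPM in sham 1, 3 and 4, and at 45.1, 45.3, 49.1 and 45.9 CPM in RMF 1 to 4. No transgenic library overlapped WT, and sham 1 lay below the other sham libraries. RMF was 1.85-fold above WT (adjusted p = 0.00343), and this call held in each fit that left out 1 library. Sham was 1.61-fold above WT (adjusted p = 0.0331). This call held in only 2 of the 11 fits that left out 1 library, with an adjusted p of up to 0.168 without sham 3. It was also lost when WT and sham were fitted alone (adjusted p = 0.215), and it held in 9 of 23 alternatives in all. Nelfcd on the opposite strand (1486 to 2816 counts) ends at 174269295, so it shares only a short stretch with Ctsz.

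Cathepsin H is an aminopeptidase. Ctsh (ENSMUSG00000032359, chromosome 9, 89936205 to 89958142) stood at 8.86, 10.05, 9.44 and 7.99 CPM in WT 1 to 4, at 13.3, 13.6 and 12.1 CPM in sham 1, 3 and 4, and at 14.9, 16.3, 13.2 and 11.8 CPM in RMF 1 to 4. All transgenic libraries were above WT. RMF was 1.55-fold higher (adjusted p = 0.0283), a call that held in 5 of the 11 fits that left out 1 library, with an adjusted p of up to 0.107 without WT 4. Sham stood at 1.43-fold with an adjusted p of 0.125. Cathepsin C, or dipeptidyl peptidase I, activates serine proteases of immune cell granules. Ctsc (ENSMUSG00000030560, chromosome 7, 87927293 to 87960096) stood at 11.9, 9.32, 7.11 and 10.001 CPM in WT 1 to 4, at 15.9, 16.4 and 15.8 CPM in sham 1, 3 and 4, and at 17.6, 17.8, 14.2 and 13.2 CPM in RMF 1 to 4. The groups did not overlap WT in this gene either, yet neither single comparison passed, at 1.67-fold in sham (adjusted p = 0.0744) and 1.64-fold in RMF (adjusted p = 0.0609). Over the mean of both transgenic groups the fold was 1.66 and the adjusted p 0.0258, a call that held in 4 of the 11 fits that left out 1 library.

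Cathepsin A is a carboxypeptidase that also protects the lysosomal enzymes beta-galactosidase and neuraminidase 1 in a complex. Ctsa (ENSMUSG00000017760, chromosome 2, 164674793 to 164681939) stood at 82.4, 78.8, 89.5 and 79.9 CPM in WT 1 to 4, at 85.4, 94.5 and 103 CPM in sham 1, 3 and 4, and at 98.3, 99.9, 97.7 and 102 CPM in RMF 1 to 4. RMF lay entirely above WT at 1.203-fold, with an adjusted p of 0.142. Sham overlapped both groups and stood at 1.14-fold of WT (adjusted p = 0.316). Ctsa overlaps Pltp (1618 to 2448 counts) and Neurl2 (58 to 151 counts), both on the opposite strand. Of its partners, Neu1 stood at 1.04-fold and Glb1 at 1.17-fold of WT in sham, and 0 of the 3 genes of the cathepsin A complex examined passed the test in any comparison.

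Cst3, which encodes cystatin C and is strongly expressed by astrocytes and microglia, was the most abundant of the 10 transcripts. Cst3 (ENSMUSG00000027447, minus strand of chromosome 2, 148713642 to 148717612) stood at 734, 693, 558 and 689 CPM in WT 1 to 4 and at 643, 683 and 505 CPM in sham 1, 3 and 4. In RMF 1 to 4 it stood at 782, 736, 705 and 919.6 CPM. WT overlapped both sham and RMF. The lowest library in WT and in sham was the one that stood apart over all genes, WT 3 and sham 4. Sham stood at 0.91-fold of WT (95% confidence interval 0.747 to 1.12, adjusted p = 0.666) and RMF at 1.18-fold (0.976 to 1.42, adjusted p = 0.668). Differences between RMF and WT within that interval were not resolved.

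In sham against WT, 3 of the 10 genes were called, all higher, where 0.929% of all tested genes were called in either direction and 0.846% were higher. Without overlap between the groups in scaled CPM stood 6 members higher and 1 lower, against 6.67% and 6% of all tested genes. In RMF against WT, 5 members were called, all higher, against 1.19% of all tested genes (1.11% higher), and 7 members stood higher without overlap, against 4.21%. Both comparisons use the same 4 WT libraries. The 10 genes were chosen with earlier results of these data known, so an excess over these shares is no independent support. Over the mean of the transgenic groups, 6 members were called higher, namely Ctsc, Ctsd, Ctsh, Ctsl, Ctss and Ctsz, against 1.43% of all tested genes (1.3% higher), and the same 6 stood higher without overlap, against 2.27%. The median log2 difference of the 10 genes was 0.41 in sham and 0.59 in RMF relative to WT, with medians near 0 over all tested genes. The count in sham against WT was 1 without sham 3, with the call of Ctsd alone left, and 5 with DESeq2.

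**Figure D2:**
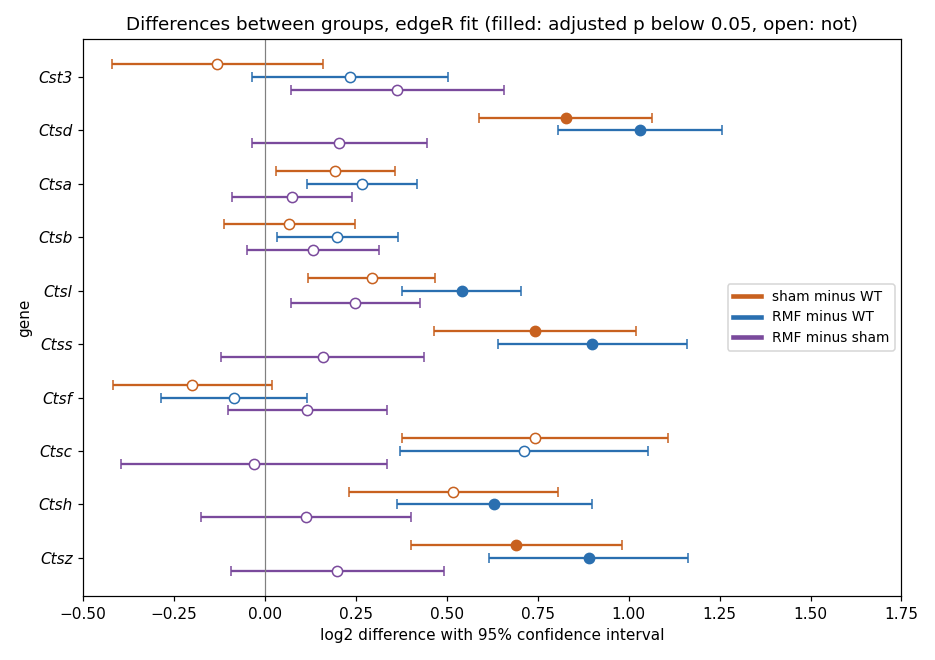
Log2 difference of each gene in 3 comparisons with its 95% confidence interval from the edgeR fit (horizontal axis), where filled points have an adjusted p below 0.05 and open points do not. Ctsd, Ctss and Ctsz are filled for both transgenic groups against WT, Ctsl and Ctsh for RMF against WT, and every point of RMF minus sham is open, with the highest at 0.36 for Cst3.

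The comparison of RMF with sham asks what field exposure changed in the transgenic hippocampus. None of the 10 genes passed the test, as none of the 14428 tested genes did with edgeR (0% called). At an unadjusted p under 0.05 stood 994 genes, or 6.89%, and 2 members, Cst3 and Ctsl. DESeq2 called 16 genes, of which 0 were members. Cst3 stood 1.29-fold higher in RMF than in sham (interval 1.05 to 1.58, unadjusted p = 0.0190, adjusted p = 0.719), with all 4 RMF libraries above all 3 sham libraries. The fold of Cst3 was 1.18 without sham 4 and 1.37 without sham 3. Ctsl stood 1.19-fold higher (interval 1.05 to 1.34, unadjusted p = 0.0102, adjusted p = 0.719) and was also without overlap.

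Ctsb likewise stood higher without overlap, at 1.096-fold (interval 0.967 to 1.24, adjusted p = 0.795), so that 3 members did so against 5.93% of all tested genes. In the remaining 7 members RMF and sham overlapped. Ctsd stood at 1.15-fold (interval 0.975 to 1.36), Ctss at 1.12-fold (0.919 to 1.35) and Ctsz at 1.15-fold (0.937 to 1.41). Ctsc stood at 0.98-fold, with an interval of 0.76 to 1.26. The difference was above 0 in 9 of the 10 genes, against 49.5% of all tested genes, with a median of 0.15 on the log2 scale. All 10 were read in the same libraries, so their directions are not independent of each other. The intervals given include differences of 1.36-fold for Ctsd and 1.41-fold for Ctsz, so a p that missed the threshold does not show equal levels.

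Levels of different genes were compared as deposited FPKM, which divides by a length for each gene. These lengths were not checked, and the order of genes depends on them. Cst3 led in every group, at 510.0 ± 55.0 FPKM in WT, 453 ± 82.4 in sham and 601 ± 76.8 in RMF, and ranked 31st of the 14428 tested genes by mean FPKM. Ctsd followed at 111 ± 4.73, 190.5 ± 39.8 and 226 ± 13.9 FPKM. By FPKM, Ctsb stood above Ctss in WT, at 67.9 against 52.3 and without overlap. Ctss stood above Ctsb in RMF, at 97.7 against 78.0 FPKM, also without overlap. In sham Ctss, at 69.4 to 104 FPKM, and Ctsb, at 67.1 to 70.7 FPKM, overlapped. In CPM, which uses no length, Ctsb stood above Ctss in every group. Its mean was 424.8 against 73.5 CPM in WT, 445 against 123 in sham and 487.6 against 137.2 in RMF. In both measures Ctss rose more than Ctsb from WT to RMF. Whether Ctss passes Ctsb in level rests on the lengths used, whereas its larger rise does not. Ctsz and Ctsa overlapped in WT, with means of 16.8 and 16.9 FPKM, and Ctsz lay above Ctsa in sham (26.2 against 18.7) and RMF (31.1 against 20.4). Ctsl and Ctsf held the next places and overlapped in WT and sham. Ctsh and Ctsc, at group means between 1.59 and 3.01 FPKM, were lowest in each group and overlapped each other throughout.

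**Figure D3:**
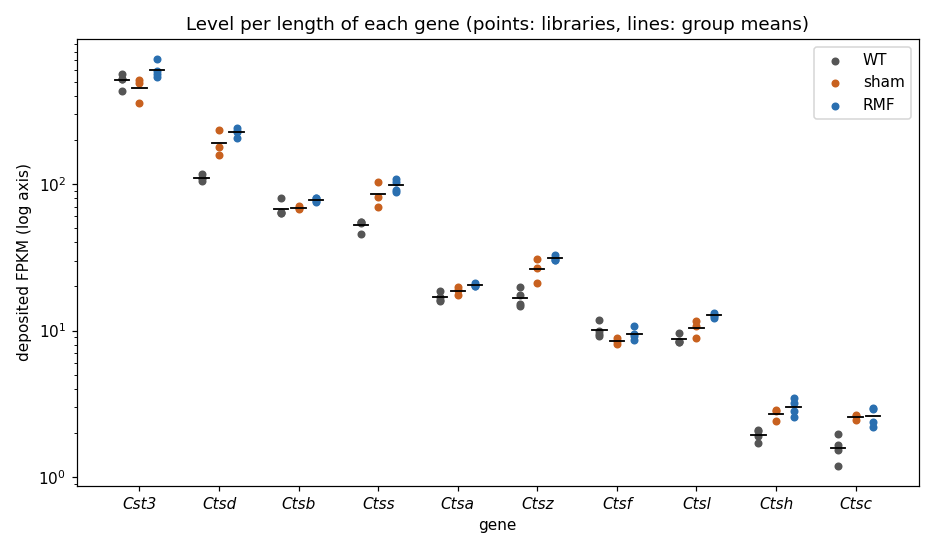
Deposited FPKM of each gene (vertical axis, log scale) in every library by group, with lines at group means. Cst3 is highest in all groups, at 453 to 601 FPKM on average, and Ctsh and Ctsc are lowest at 1.59 to 3.01. Ctss lies below Ctsb in WT and above it in RMF, an order that rests on the length used for each gene.

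The summed FPKM of the 9 cathepsins was 287 ± 10.1 in WT, 413 ± 63.2 in sham and 481 ± 13.2 in RMF, with no overlap between WT and either transgenic group and with sham 3 (484 FPKM) inside the range of RMF. Ctsd made up 38.6% ± 1.53 of that sum in WT, 45.8% ± 2.49 in sham and 47.0% ± 1.85 in RMF, again without overlap with WT. The share of Ctsb moved the other way, at 23.6% ± 2.22, 16.9% ± 2.02 and 16.2% ± 0.479. The shares of Ctss overlapped between groups, at 18.3% ± 2.03, 20.5% ± 1.22 and 20.3% ± 2.05. Shares add to a fixed total, so a higher share of 1 gene lowers the others. The sums and shares also depend on the unchecked lengths behind FPKM.

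Cst3 was also set against the enzymes it inhibits, as its FPKM over the summed FPKM of the 7 cysteine cathepsins. This ratio was 3.59, 3.36, 2.54 and 3.39 in WT 1 to 4, 2.48, 2.22 and 1.94 in sham 1, 3 and 4, and 2.51, 2.31, 2.33 and 3.11 in RMF 1 to 4. All sham libraries lay below all WT libraries, by a narrow margin at WT 3 and sham 1, and RMF overlapped both groups. The ratio is one of transcripts and gives no measure of inhibitor or enzyme protein. Its size also depends on the unchecked lengths behind FPKM.

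**Figure D4:**
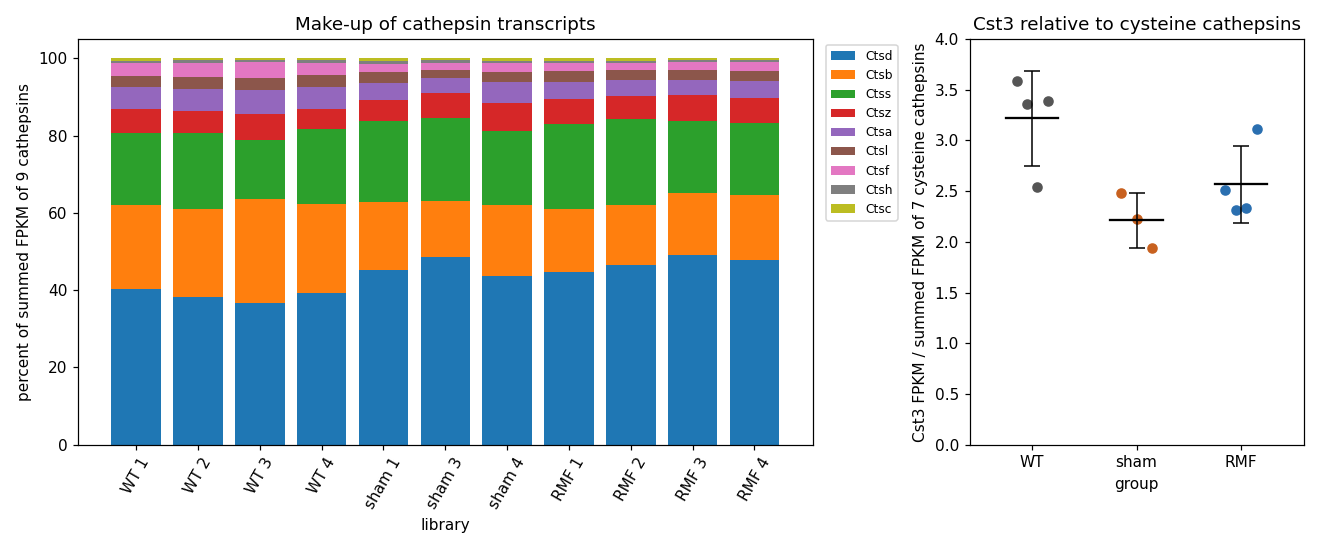
Left, percent of the summed FPKM of 9 cathepsins held by each gene in every library (stacked bars from 0 to 100). Right, Cst3 FPKM divided by the summed FPKM of 7 cysteine cathepsins, with points for libraries and lines and bars for group means and SDs. Ctsd holds 36.7% to 40.2% in WT and 43.6% to 49.0% in the transgenic libraries, and the ratio of Cst3 is 2.54 to 3.59 in WT and 1.94 to 2.48 in sham.

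Other genes of the lysosome were read from lists chosen with earlier results of these data known. Among 14 genes of cathepsin sorting and maturation, 1 was called in sham and in RMF against WT, with 0 lower. It was Grn, which encodes progranulin, a partner of cathepsin D in the lysosome, at 1.43-fold (adjusted p = 0.00312) and 1.45-fold (adjusted p = 0.00137). Psap, which encodes prosaposin, stood at 0.99-fold and 1.02-fold of WT, and Lgmn, the asparaginyl endopeptidase that processes cathepsins, at 1.16-fold and 1.19-fold. Among 15 genes of the lysosomal membrane and its acidification, 2 were called in sham and 3 in RMF. These were Laptm5 (2.02-fold in sham, adjusted p = 0.00108) and Cd68 (2.58-fold, adjusted p = 0.00221), both of immune cells, and in RMF also Cd63 (1.41-fold, adjusted p = 0.0499, with 2 of 11 fits that left out 1 library keeping the call). Lamp1, a general lysosomal membrane protein, stood at 1.12-fold and 1.17-fold with adjusted p of 0.447 and 0.418.

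Among 26 other lysosomal hydrolases, 1 was called in sham and 3 in RMF, all higher. Hexa, which encodes a subunit of beta-hexosaminidase, was 1.41-fold above WT in sham (adjusted p = 0.0347) and 1.40-fold in RMF (adjusted p = 0.0208). With 1 library left out, the call of Hexa held in 4 of 11 fits in sham (adjusted p up to 0.167) and in 6 in RMF (up to 0.0927). Man2b1, lysosomal alpha-mannosidase, was 1.34-fold above WT in RMF (adjusted p = 0.0167), with 7 of 11 such fits keeping the call (adjusted p up to 0.0813). The median log2 difference of the 26 genes was 0.10 in sham and 0.11 in RMF, against 0.41 and 0.59 for the 10 cathepsin and cystatin C genes. Of 6 tested transcription factors of lysosomal and myeloid genes, Irf8 was called in RMF, at 1.94-fold (adjusted p = 0.0268, with 6 of 11 such fits keeping the call and values up to 0.0918), while Tfeb stood at 1.12-fold in sham and 1.34-fold in RMF with adjusted p of 0.768 and 0.661. None of 5 tested genes of the MHC class II pathway passed, with Cd74, the invariant chain that cathepsin S trims, at 1.73-fold in sham (adjusted p = 0.358) and H2-DMa, part of the peptide-loading chaperone, at 0.90-fold (adjusted p = 0.609). Of those 5 class II genes, 4 stood above 0 in sham and in RMF against WT, with median log2 differences of 0.79 and 0.52. In none of these lists was a gene called lower, or called between RMF and sham.

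Cst7 encodes cystatin F, an inhibitor that acts inside immune cells on cathepsins such as cathepsin C. Its level was 0.174 to 1.21 CPM across WT libraries, against 8.91 to 19.6 CPM across sham and 13 to 19.2 CPM across RMF libraries. Its fold over WT was 28.3 in sham (adjusted p = 0.00148) and 34.6 in RMF (adjusted p = 0.000742). With 1 library left out the fold ranged from 21.6 to 60.6 in sham and from 28.7 to 74.1 in RMF. Both were highest without WT 3, which held the highest WT value. Counts in WT were only 12 to 85 per library, so the size of the fold rests on low values. Cstb, the cytosolic cystatin B, stood at 0.91-fold and 0.88-fold of WT. Of 6 other cathepsin genes in the table, 2 were tested and 0 were called: Ctso stood at 1.06-fold of WT in sham (adjusted p = 0.773) and Ctsk at 1.68-fold (adjusted p = 0.27).

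Markers of microglia were higher in the same groups as the called cathepsins. Of 20 microglia markers, 6 were called higher in sham and 9 in RMF against WT, all 20 stood above 0 in both, and the median log2 differences were 0.53 and 0.59. Called in both were Ly86, Trem2, Laptm5, Tyrobp and C1qa, with Selplg in sham and Csf1r, Cx3cr1, C1qb and C1qc in RMF. Of the 11 fits that left out 1 library, the sham call held in 1 for Ly86 (adjusted p up to 0.211), in 3 for Selplg (up to 0.162) and in 7 for Tyrobp (up to 0.0782). In RMF the call held in 6 for Ly86 (up to 0.0738) and 10 for Cx3cr1 (up to 0.0519), and the other calls of microglia markers held in all 11. Their summed level was 397 to 492 CPM across WT, 603 to 793 CPM across sham and 673 to 745 CPM across RMF libraries, with 0 of the 20 at 0 in any library. Of 18 tested genes of plaque-associated microglia, 7 were called higher in sham and 10 in RMF, and 0 lower. Csf1r, the receptor microglia need to survive, stood at 67.8 ± 7.44 CPM (WT), 95.02 ± 14.2 (sham) and 103 ± 3.89 (RMF), and P2ry12, a receptor of resting microglia, at 44.8 ± 5.71, 57.4 ± 8.27 and 51.4 ± 6.68. In bulk tissue a change in the number of cells of a type and a change in RNA per cell cannot be told apart. Summed astrocyte markers were 3568 to 4327 CPM for WT, 4706 to 5245 for sham and 4741 to 5092 for RMF, with Gfap the single one called, in RMF, a call that held in 3 of the 11 fits that left out 1 library (adjusted p up to 0.105). Those of neurons were 12170 to 12990, 12860 to 13040 and 11270 to 12030 CPM, with 0 of 13 called. Markers of perivascular macrophages and blood leukocytes, of which 2 of 12 passed the filter on low values, summed to 4.20 to 15.7, 8.07 to 26.6 and 11.2 to 48.5 CPM. Among 10 endothelial and mural markers, 2 were called higher in both groups. These were the smooth muscle genes Acta2 (3.54-fold in sham, adjusted p = 0.000267, and 3.44-fold in RMF, adjusted p = 0.000223) and Myh11 (2.98-fold, adjusted p = 0.000492, and 2.69-fold, adjusted p = 0.000602), and these calls held in all 11 fits that left out 1 library. The summed level of the 10 was 306 to 415.5 CPM in WT, 342 to 442.5 CPM in sham and 339 to 369 CPM in RMF, with medians of 0.12 and -0.02 on the log2 scale. All 10 oligodendrocyte markers stood above 0 in both groups, with medians of 0.36 and 0.49 and 0 called, and their sums overlapped at 2530 to 8315, 4043 to 8433 and 4807 to 9811 CPM. Of 6 tested markers of choroid plexus and meninges 1 stood above 0 and 0 were called, with medians of -0.59 and -0.67 and sums of 203 to 574.5, 173 to 205 and 169 to 334 CPM. The part of cell composition in the cathepsin results was not tested.

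**Figure D5:**
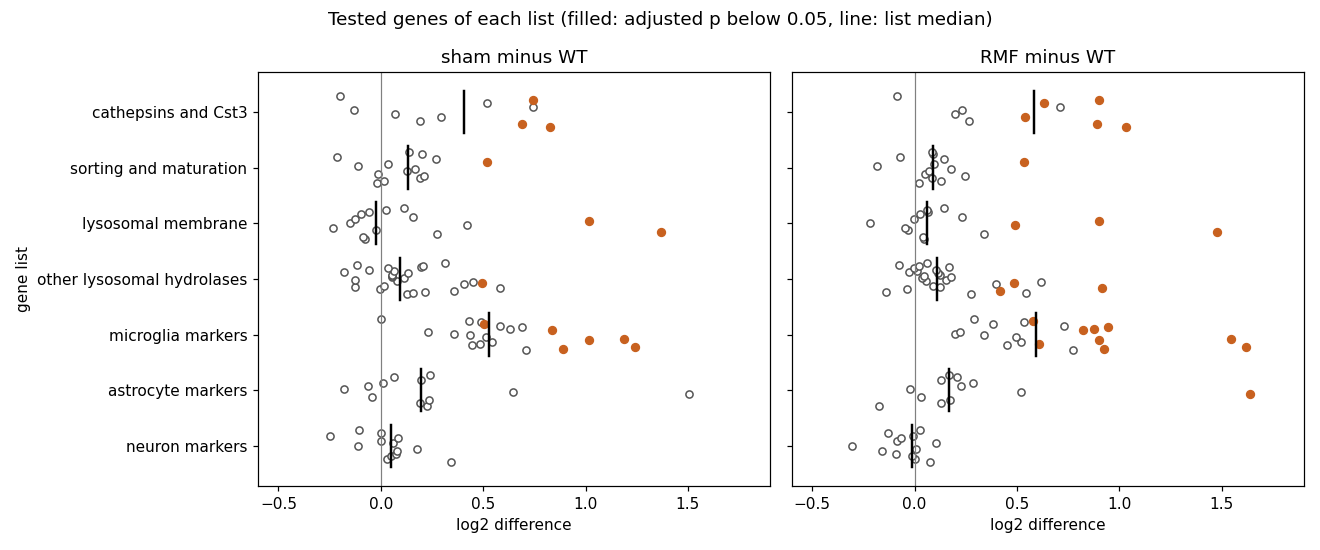
Log2 difference from WT (horizontal axes) of the tested genes of 7 lists in sham (left) and RMF (right), with called genes filled and the list median as a line. The line of the cathepsins and Cst3 stands at 0.41 and 0.59 and that of the microglia markers at 0.53 and 0.59, while those of sorting genes, lysosomal membrane genes and other hydrolases lie between -0.02 and 0.13.

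The tested genes whose pattern over the 11 libraries was most like that of each member were found by the root mean square (RMS) difference of log2 CPM, each gene centred on its mean. For Ctss these were C1qb (0.093) and C1qa (0.108), which encode chains of the complement component C1q. For Ctsd they were Vsir (0.0901), which encodes the checkpoint receptor VISTA, and Csf3r (0.121), and for Ctsz Fcgr3 (0.133), an Fc receptor gene, and Vsir (0.144). For Ctsh they were Inpp5d (0.0934), which encodes the phosphatase SHIP1, and Hexa (0.102), and for Ctsc Fam107b (0.113) and Tgfbr1 (0.125). For Ctsl they were Clic1 (0.121) and Prdx6 (0.13). Mid2 (0.0665) was nearest to Ctsa. The nearest genes of Ctsb were St3gal4 (0.0626) and Vps18 (0.0668), those of Ctsf Get3 (0.0509) and Atp6v0e (0.0515), and those of Cst3 Gapdhs (0.0757) and Slc66a2 (0.079). For the less variable members many genes lie close, since a flat profile already stood at an RMS of 0.121 from Ctsb and 0.139 from Ctsa, against 0.475 from Ctsd.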

How the data were processed

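Bulk RNA sequencing was read from 1 deposited table. Per the labels' protocols, oligo(dT) libraries from 5 µg of RNA were sequenced as read pairs (150 bp each) after which Cutadapt 1.9 trimmed them. Per the submitters' processing notes, HISAT2 2.0.4, StringTie 1.3.4d and edgeR were used. These notes name a human build, but the identifiers are of mouse genes; the mouse build, the counting tool and its use of strand were not given in the sources used here. The authors deposited raw whole-number counts for each library, and FPKM beside them. The table held 2 further columns, counts and FPKM headed as a sham library 2, which matched none of the samples given and were not used, so that sham values rest on 3 libraries.

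Tested were genes reaching 1 FPKM in 3 or more libraries (14428 of 36826), by edgeR 4.0.16 in R 4.3.3 with TMM scaling, 1 fit of all 11 libraries in 3 groups and no covariate. Contrasts were sham minus WT, RMF minus WT, RMF minus sham, and the equal-weight mean of both transgenic groups minus WT. SEs come from the F statistic and intervals cover 95%. The script was tested on simulated counts. Alternatives used DESeq2 1.42.0, limma 3.58.1, other scalings, filters and sets of libraries. The members and lists were chosen with earlier results of these data known. By rule, list genes past the threshold were named, otherwise the 2 most abundant, beside the 2 genes nearest in pattern to each member; Psap, Lgmn, Lamp1, Tfeb, Cstb and P2ry12 were added after their values were seen, and lists given only as sums name fewer. Some genes that the rule names are not reported here. The lowest count of a member in any library was 499, for Ctsc.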

Additional observations from a re-analysis of the deposited data

Results flagged for a closer look

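Ctsb in WT 3 stood at 495 CPM, against 397 to 405 CPM in the other WT libraries. It was set apart because its gap to the nearest WT library took 0.92 of the range of the group, above Dixon's 95% critical value for 4 samples. The check covered 20 groups of 4 libraries, and chance alone puts about 1 in 20 such groups past that value. WT 3 also stood apart over all genes. Its part in the Ctsb value was not tested.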

How the results depend on the processing

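The 10 genes were refitted under 22 or 23 alternatives per comparison. Of 910 values, 843 kept their direction and side of the threshold, 37 lost it, 24 gained it and 6 changed sign. Ctsd was called against WT throughout. Against a main count of 3 members in sham minus WT, DESeq2 and voom with library weights gave 5, and fitting only the compared groups gave 1. In RMF minus WT, voom gave 8 against 5. Leaving out 1 library gave 1 to 3 members in sham minus WT, with 1 without sham 3. RMF minus sham gave 0 members under every alternative run. Over all genes in sham minus WT (134), no filter gave 304, filterByExpr 392, a minimum FPKM of 0.1 363, DESeq2 345, voom 252, only the compared groups 76, an adjusted p below 0.1 215 and leaving out 1 library 88 to 152, lowest without sham 3. In RMF minus sham (0), DESeq2 gave 16, and leaving out 1 library 0 to 1, the 1 without sham 1. In RMF minus WT (172), no filter gave 354, filterByExpr 419, a minimum FPKM of 0.1 378, DESeq2 315 and voom 308. For the transgenic mean minus WT (206) these were 413, 497, 464, 410 and 320.

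Replicate numbers did not pair libraries (correlations of deviations -0.204 to 0.12 over 10 pairs). The replicate block gave 1 member in sham minus WT, Ctsd, and 87 genes, with 112 in RMF minus WT and 126 for the transgenic mean.

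Ctsc in RMF minus sham, at -0.031 on the log2 scale, changed sign to 0.015 without TMM, 0.004 and 0.005 with limma at pseudocounts of 0.1 and 1, and ranged from -0.096 to 0.038 with 1 library left out. Cst3 for the transgenic mean ranged from -0.026, without WT 3, to 0.108. For each of these the cause was not tested. No test separated the limit set by depth from that set by the spread between libraries.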
